A study of Mus musculus with 10 samples.

Results

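The comparison was between mouse embryonic fibroblasts taken on day 8 and on day 12 of chemical reprogramming with C6FAE, in the cells that were not picked from colonies. The members were the cells with the prefix d8 or d12, each with at least 4000 detected genes. They came to 62 of 72 d8 cells and 67 of 72 d12 cells, or 129 of the 670 cells kept in the series. The cells were fibroblasts from ICR embryos, and all of them, d8 and d12 alike, had been cultured in the same agents. These were CHIR99021 (a GSK3 inhibitor that activates Wnt signalling), the TGF-beta receptor inhibitor RepSox and Forskolin (which raises cAMP). They also included AM580 (a retinoic acid receptor agonist) and EPZ004777 (an inhibitor of the histone methyltransferase DOT1L). The medium recipe of the study also lists valproic acid, basic fibroblast growth factor, fetal bovine serum and a serum replacement. The aim of this culture is to turn fibroblasts into cells like extraembryonic endoderm (XEN), and cells from the colonies that form (d8c and d12c) were named apart from the cells compared here. The medium was changed every 4 days, and whether cells were taken before or after a change is not stated. The labels give no dose. Cells were picked by hand after digestion. The 10 samples of the series are batches of cells, and the cell names do not show the batch, so each day was treated as 1 sample and the comparison had no replicate. Day and batch cannot be told apart. No test was run and no p-value was computed. Differences between means over cells are therefore differences between these cells, and the intervals given cover counting error only.

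Depth was similar on both days. The median cell had 676178 UMIs (unique molecular identifiers, which count RNA molecules) on d8 and 768565 on d12, with ranges of 17633 to 3259198 and 49202 to 2102938, and 7759.5 and 7938 detected genes. Spike-in RNA made up 2.11 to 80.2% of the counts of a d8 cell and 5.03 to 26.4% of those of a d12 cell. The median share was 6.12% in d8 cells and clearly higher in d12 cells, although the highest single share was in a d8 cell. Levels are given as CPM, the UMIs of a gene scaled to a fixed total per cell, without the spike-in RNA. They therefore do not show this difference between the days, and its cause was not tested. The label was checked against the 20 fibroblast markers listed, which all had UMIs on both days. Their summed level had a median of 17100 CPM in d8 cells (2240 to 37800) and of 12900 CPM in d12 cells (824 to 59600). No d8 cell and 2 d12 cells held more UMIs of the XEN markers than of the fibroblast markers.

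As background, epiregulin, amphiregulin and the other members of the EGF family are made as membrane proteins, are shed by proteases and activate the EGF receptor and its relatives. The receptor signals through the kinases MEK and ERK to immediate early transcription factors, and the pathway is damped by feedback genes that ERK itself switches on, among them phosphatases of the Dusp family and Sprouty proteins. Fibroblasts release the same ligands together with interleukins and chemokines during wound healing, while their resting programme is the secretion of collagen matrix under mesenchymal transcription factors such as *Snai2*, *Osr1* and *Twist2*.

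Between d8 and d12 a small set of genes went from few or no UMIs to high levels, led by the EGF receptor ligands *Ereg* and *Areg*. Genes of the ERK response and of inflammation were also among the largest increases, and immediate early genes were higher in part. Genes were compared if their mean log2(CPM + 1) reached 1 on either day. Of these 9696 genes, 1380 (14.2%) were higher at d12 by over 1 and 1416 (14.6%) were lower by over 1, or 28.8% in all. A gene that reached this minimum on 1 day only, from near 0 on the other, had to differ: 404 of the higher genes reached it only at d12 and 311 of the lower genes only at d8. List counts below are over the members that reached the minimum and hold such genes too. They are to be read beside the 14.2% and 14.6% of all genes. The larger differences were mostly upward. At a difference of over 2, 475 genes were higher (4.90%) and 190 were lower (1.96%), 6.86% together. The median difference of all these genes was -0.13, with a 5th percentile of -1.58 and a 95th percentile of 1.98. With TMM or DESeq2 size factors in place of CPM, the median of all genes moved up by 0.16 and 0.15, and the counts became 1614 higher and 1124 lower, and 1600 and 1138. All differences below are d12 minus d8 of mean log2(CPM + 1) over cells, and they understate the change of genes near 0.

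**Figure D1:**
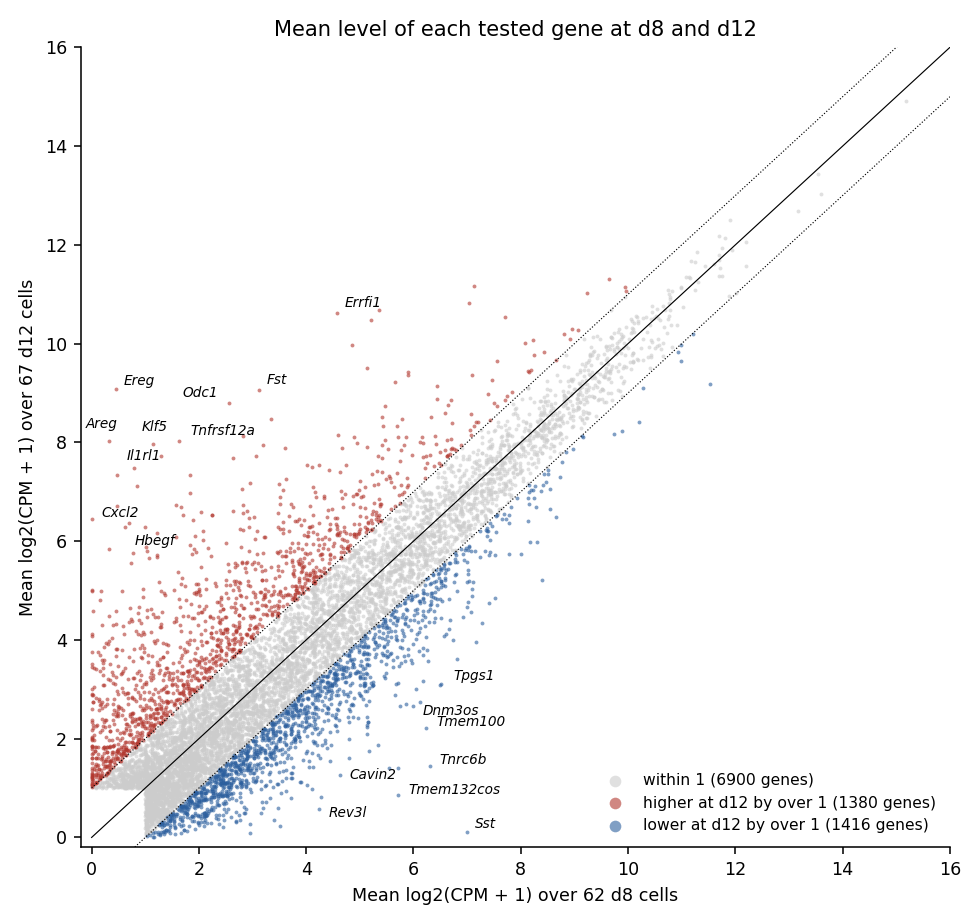
Mean log2(CPM + 1) of each of the 9696 genes over 62 d8 cells (x axis) and 67 d12 cells (y axis). The solid line marks equal levels and the dotted lines a difference of 1; the 1380 genes in red lie above them, with *Ereg*, *Areg*, *Il1rl1* and *Cxcl2* near 0 on the x axis, and the 1416 genes in blue lie below, with *Sst* lowest on the y axis.

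The largest increase of all was that of *Ereg*, which encodes epiregulin. It had UMIs in 12 of 62 d8 cells, at 42.0 CPM or less. In d12 cells it ranged from 28.0 to 5720 CPM with a median of 834 CPM. The groups overlapped only slightly, as 64 of 67 d12 cells lay above the highest d8 cell. Its UMIs summed to 196 over d8 cells (exact Poisson 95% interval 170 to 225) and to 66755 over d12 cells (66200 to 67300), and its mean was 1.62 CPM against 1220 CPM, a difference of 8.63 and a 756-fold higher mean CPM. After each cell was thinned to 50000 UMIs, *Ereg* had a UMI in 6.78% of 59 d8 cells and in 95.5% of 66 d12 cells, against 19.4% and 100% unthinned. *Areg*, the gene of amphiregulin, had a mean of 0.942 CPM at d8, where no cell exceeded 38.6 CPM. At d12 its lowest, median and highest cells were at 13.2, 267 and 11300 CPM, a difference of 7.69, and 53 of 67 cells lay above every d8 cell. *Hbegf*, which encodes the heparin-binding member of the family, was higher by 5.66, with 0 to 31.0 CPM at d8 and 3.61 to 1650 CPM (median 102) at d12. All 67 d12 cells therefore held UMIs of each of these 3 ligands, but some at a low level: 51 of them were above 10% of the d12 mean for *Ereg* and 45 for *Areg*.

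The receptor and its feedback inhibitors were read beside the ligands. *Egfr*, the receptor, was higher by 1.99, from a mean of 12.5 to 41.0 CPM, and *Erbb2*, its partner without a ligand of its own, differed by -0.10 (6.13 and 5.20 CPM). *Nrg1*, which encodes neuregulin, was higher by 3.70 (4.04 and 57.3 CPM). *Errfi1*, whose product binds and blocks the EGF receptor, was at 0 to 936 CPM at d8 (median 31.1) and at 90.6 to 6320 CPM at d12 (median 2020). Its difference was 6.04, and 52 of 67 d12 cells lay above the highest d8 cell. Of the 17 measured genes of the list of ERK feedback and Etv genes, 13 were higher by over 1 (2 of them under the minimum at d8) and *Spry1* (-1.15), a Sprouty inhibitor of the pathway, was lower, against 14.2% and 14.6% of all genes. The list median was 2.50 and that of all genes -0.13. Its other large increases were *Plaur* (5.51), the receptor of the urokinase protease, and *Phlda1* (5.12), a pleckstrin-domain protein, which went from a mean of 57.3 to 1480 CPM. *Ier3*, a survival gene of the early response, was higher by 3.57 and *Dusp4*, a phosphatase of ERK, by 3.54. *Spry4* and *Spry2* were higher by 3.46 and 2.14, *Dusp6* by 2.47 and *Etv5*, an ETS transcription factor, by 1.25. *Egr1* (0.20) and *Ccnd1* (0.09), both often used as readouts of ERK, stayed within 1. Summed over the list, the median cell had 535 CPM at d8 and 5660 CPM at d12, and the quartiles (395 to 842 and 4100 to 8490 CPM) did not overlap.

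Among the 23 measured ligands and receptors of the EGF, FGF, PDGF, VEGF and HGF families, 14 were higher by over 1 and 1, the FGF receptor gene *Fgfr2* (-1.14), was lower, with a median of 1.29. Of the 14, 7 were under the minimum at d8. The glial ligand *Gdnf* (2.95), the epithelial growth factor *Fgf7* (2.31) and *Vegfa* (2.04), which drives vessel growth, were higher by over 2. The PDGF ligands *Pdgfa* (0.54) and *Pdgfc* (0.50) and the receptor *Pdgfrb* (-0.16) were within 1.

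*Ereg* and *Areg* lie side by side in the mouse genome. In mm9, the build the authors used, *Ereg* is at chr5:91503643-91522675 and *Areg* at chr5:91568641-91577458, both on the plus strand, and the genes around them include chemokines and other EGF-family genes. The block from *Cxcl5* to *Btc* (chr5:91188325-91831939, 0.644 Mb), which was picked after its values were seen, holds 12 protein-coding genes. The chemokine genes *Cxcl1* and *Cxcl5*, which reached the minimum on both days, differed by 3.62 and 1.73, and *Mthfd2l*, a mitochondrial enzyme of folate metabolism, by 1.22. Besides *Ereg* and *Areg*, 4 genes reached the minimum at d12 only, so that some difference was set by that choice, and their number is not read as a result. They were the chemokine genes *Cxcl2* (6.44) and *Cxcl3* (1.15) and the EGF-family genes *Epgn* (1.38) and *Btc* (1.20). The chemokine genes *Ppbp* (0.19), *Pf4* (-0.09) and *Cxcl15* (0.14) had mean log2 values of at most 0.69 and were under the minimum on both days.

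Promoters of 3 genes of these groups are shown, since Forskolin acts through cAMP, whose factor CREB binds the motif TGACGTCA (CRE), and ERK through AP-1, which binds TGANTCA. They are the 250 bases before the start of the gene in the RefSeq promoter table (build GRCm38.p6, whose coordinates differ from those of mm9), all on the plus strand, with a match to either motif in capitals. The sequences are *Areg* at chr5:91139349-91139598, *Plaur* at chr7:24462233-24462482 and *Cxcl2* at chr5:90903649-90903898.
Areg: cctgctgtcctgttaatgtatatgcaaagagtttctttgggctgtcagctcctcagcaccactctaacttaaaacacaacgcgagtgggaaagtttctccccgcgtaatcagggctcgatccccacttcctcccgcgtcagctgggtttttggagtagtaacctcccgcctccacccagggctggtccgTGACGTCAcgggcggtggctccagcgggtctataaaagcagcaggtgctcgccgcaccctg
Plaur: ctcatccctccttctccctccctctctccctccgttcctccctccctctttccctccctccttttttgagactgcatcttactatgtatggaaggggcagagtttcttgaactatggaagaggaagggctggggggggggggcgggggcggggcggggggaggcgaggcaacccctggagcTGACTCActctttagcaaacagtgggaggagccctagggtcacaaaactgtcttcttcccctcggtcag
Cxcl2: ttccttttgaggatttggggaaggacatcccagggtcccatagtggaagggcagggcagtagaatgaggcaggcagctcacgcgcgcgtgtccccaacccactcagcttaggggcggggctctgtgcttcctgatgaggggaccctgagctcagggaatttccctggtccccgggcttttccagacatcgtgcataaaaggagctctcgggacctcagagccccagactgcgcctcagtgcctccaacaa
The *Areg* promoter held the CRE 61 bases before the start, and the *Plaur* promoter an AP-1 match 69 bases before it. Neither motif was in these bases of *Cxcl2*. Over the 32851 promoters of the table, searched on both strands, 6.75% held the AP-1 motif and 1.55% the CRE. The 3 printed genes were picked singly, so their matches cannot be set against these shares. No share is given for the genes that were higher at d12, because promoters were matched for only 360 of the 475 (75.8%). *Ereg*, *Hbegf*, *Klf5*, *Fst* and *Gem* had no entry in the promoter table, so the printed promoters do not stand for the leading genes. A match is a sequence and not a shown site of binding. Forskolin was present on both days, and whether CREB or AP-1 had a part in these differences was not tested.

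The other leading increases were receptors, enzymes and signalling genes. *Il1rl1*, the receptor of interleukin 33, had 0 to 69.7 CPM at d8 and 6.61 to 3200 CPM at d12 (median 193), a difference of 6.69. *Klf5*, a zinc-finger transcription factor, had UMIs in 22 of 62 d8 cells and reached 288 CPM in the highest. Its d12 cells had 4.43 to 1700 CPM (median 279), and the difference was 6.81. *Tnfrsf12a*, the receptor of the cytokine TWEAK, had the narrowest range of the 15 leading increases. Its d12 cells ran from 64.1 to 665 CPM around a median of 283 CPM, against 0 to 244 CPM at d8, and the difference was 6.40. *P2ry2*, a receptor of extracellular ATP and UTP, was higher by 6.24 (0 to 56.5 CPM and 6.06 to 649 CPM, medians 0 and 164 CPM). *Odc1*, the rate-limiting enzyme of polyamine synthesis, was also higher by 6.24, from a median of 3.98 to 582 CPM, with 42 of 67 d12 cells above the highest d8 cell (321 CPM). *Rgcc*, a regulator of the cell cycle, differed by 6.43 (medians 0 and 222 CPM) and the potassium channel gene *Kcnk10* by 6.27 (medians 0 and 177 CPM). *Fst*, which encodes the activin antagonist follistatin, was higher by 5.94, from a median of 4.75 to 766 CPM, and *Gem*, a small GTPase that blocks calcium channels, by 5.67, from a median of 0 to 93.0 CPM.

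*Cxcl2* and *S100g* differed in another way. *Cxcl2*, a chemokine that attracts neutrophils, had 0 UMIs in the 62 d8 cells, a count that allows up to 3, and 27387 in the d12 cells. It was found in 66 of 67 d12 cells, at a median of 50.6 CPM and a highest value of 5350 CPM, and its mean was 433 CPM (a difference of 6.44). *S100g*, a calcium-binding protein that is abundant at d20, had a mean of 1140 CPM at d12 against 2.86 CPM at d8, a difference of 6.86. The quartiles of the d12 cells were 93.7 and 139 CPM, no d12 cell was below 68.3 CPM, and the 2 highest cells had 21400 and 18100 CPM. Thus most d12 cells sat in a narrow low band, and 5 of 67 lay above the mean. The same shape was seen in *Gkn1*, a secreted protein of the stomach lining (12.7 CPM in the lowest and 6960 CPM in the highest d12 cell), and in *Serpinb2*, a serpin protease inhibitor (6.74 and 1630 CPM, with a median of 20.7 CPM). These were the only genes of the 9696 whose lowest d12 cell lay above every d8 cell, and both had 0 UMIs at d8. The keratin genes *Krt19* (5.29) and *Krt8* (4.47) had a similar shape, as described below. Other epithelial markers did not all share it, as the d12 medians of *Cldn3* and *Esrp1* were 0 CPM.

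Because of this band, each level was also taken after 10% of the gene's mean over its group had been subtracted from every cell, an alternative chosen after seeing the data. *S100g* then differed by 2.38 and not 6.86, *Areg* by 5.64, *Il1rl1* by 4.63, *Cxcl2* by 4.03 and *Rgcc* by 4.68. *Ereg* (6.84), *Klf5* (6.43), *Tnfrsf12a* (6.34), *Errfi1* (5.94), *Odc1* (5.68) and *Fst* (5.43) moved less. The lowest d12 cell was at 6.01% of the d12 mean for *S100g* and at 2.29%, 1.38% and 1.25% for *Ereg*, *Areg* and *Il1rl1*, against 21.2% for *Tnfrsf12a*. What sets the band was not tested.

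**Figure D2:**
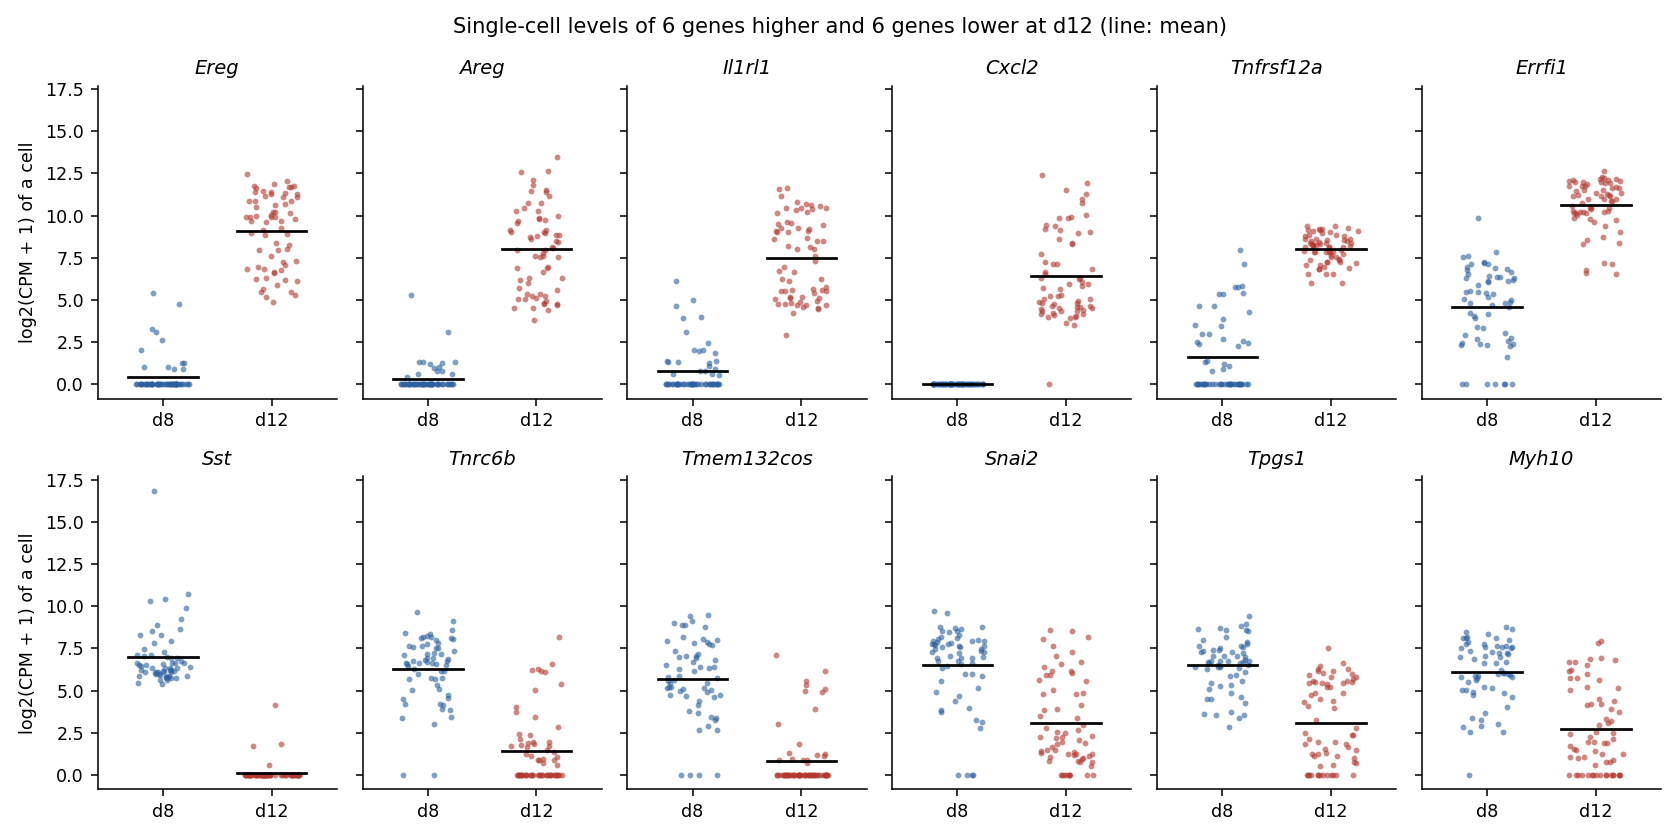
Each point is 1 cell and the lines are means over 62 d8 cells (blue) and 67 d12 cells (red), as log2(CPM + 1) on the y axis, for 6 genes higher (top) and 6 lower (bottom) at d12. *Ereg* d12 cells run from 28.0 to 5720 CPM, above nearly all d8 cells; *Tnfrsf12a* d12 cells are the most even, and in the bottom row *Sst* has a d8 cell at 118000 CPM far above a band around 82.7 CPM.

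Immediate early transcription factors were higher in part. Of the 24 measured genes, 13 were higher by over 1 (3 of them under the minimum at d8) and 0 were lower, with a list median of 1.10. *Myc*, a growth-promoting transcription factor, was higher by 4.23, from a median of 3.04 to 139 CPM. The zinc-finger genes *Egr2* and *Egr3* were higher by 3.67 and 3.38, *Maff* by 2.18 and the AP-1 genes *Junb* and *Jun* by 2.16 and 1.21. *Fos*, the partner of *Jun* in AP-1, was lower by 0.92 (238 and 164 CPM), and *Egr1* and *Fosl2* (0.48) were within 1. Of the 23 measured cAMP and CREB targets, 11 were higher (2 of them under the minimum at d8) and 0 were lower, with a median of 0.98. These were led by *Areg*, *Gem* and *Ptgs2* (4.56), which encodes the inducible prostaglandin synthase, and by *Stc1* (3.79), a secreted glycoprotein that went from a mean of 459 to 3310 CPM. *Crem*, a repressor that cAMP induces, was higher by 2.37, while *Nr4a1* (1.23), *Sik1* (1.08) and the phosphodiesterase gene *Pde4b* (-0.63) differed less. Forskolin was present on both days.

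Inflammatory genes were higher as a group. Of 19 measured cytokine and acute inflammatory genes, 15 were higher by over 1 (5 of them under the minimum at d8) and 0 were lower, with a median of 2.45, and their summed level had a median of 913 CPM in d8 cells and of 3750 CPM in d12 cells. *Il11*, a fibroblast-acting interleukin, went from 0 to 106 CPM at d8 (median 0) to 0 to 2320 CPM at d12 (median 39.0), a difference of 4.80. *Il6*, the acute-phase interleukin, was higher by 3.43, with a d12 median of 13.6 CPM and a highest cell of 3410 CPM. *Ptges*, which makes prostaglandin E2, was higher by 3.52, *Csf1*, the macrophage growth factor, by 3.25 and *Lif*, a cytokine of the interleukin 6 family, by 2.50. *Icam1*, an adhesion molecule of inflamed cells, was at 12.2 and 9.81 CPM (-0.61). Of 15 measured chemokine genes, 10 were higher (5 of them under the minimum at d8) and 0 were lower, with a median of 1.31, led after *Cxcl2* by *Cxcl1* (3.62), *Ccl20* (2.90, 0 UMIs at d8) and *Ccl2* (2.63), an attractant of monocytes. With the 10% of the mean subtracted, 6 were higher and 1 was lower. The stromal chemokine genes *Cxcl14* (-0.77) and *Cxcl12* (0.85) were within 1. Beside these lists, macrophage markers summed to 0 to 290 CPM in d8 cells (quartiles 0 and 12.3) and to 0 to 521 CPM in d12 cells (quartiles 5.82 and 87.1). UMIs were found for 5 of 12 of these markers on either day, and *Ptprc*, *Adgre1* and *Tyrobp*, the defining genes of such cells, were at 0 throughout. Of these markers, 3 reached the minimum, and 2 of the 3 were higher by over 1 (median 1.66). All 3 reached it at d12 only, so their count is not read as a result.

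Interferon response and MHC class I genes were higher in 14 of 23 (6 of the 14 under the minimum at d8) and lower in 1, with a median of 1.37. *Bst2*, which tethers viruses to the cell surface, was higher by 3.76 and *Isg15*, a ubiquitin-like protein, by 2.71. The antigen presentation genes *Tapbp* (2.54), *Psmb8* (1.95), *H2-K1* (1.89) and *H2-D1* (1.50) were higher as well. *Ifit2* (-1.17), *Ifit3* (-0.94) and *Tap1* (-0.88), which also respond to interferon, were not.

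TGF-beta family genes were mixed at d12, with RepSox present on both days. Their list counts stand beside 14.2% higher and 14.6% lower by over 1 among all genes. Of 18 measured TGF-beta pathway genes, 6 were higher and 4 lower by over 1 (median 0.27). The corepressor *Tgif1* (3.85), the signal transducer *Smad3* (3.02) and the inhibitor *Smad7* (2.34) were higher, while the decoy receptor *Bambi* (-1.67), the corepressor *Ski* (-1.66), the matrix target *Tgfbi* (-1.57) and the ligand *Tgfb2* (-1.07) were lower. In the activin group, 4 of 11 were higher and 0 lower (median -0.01). *Inhba*, the subunit of activin A, went from 0 to 1180 CPM (median 38.9) at d8 to 40.4 to 8090 CPM (median 2210) at d12, a difference of 5.26, beside the 5.94 of its antagonist *Fst*. *Inhbb*, the other activin subunit, was at 344 and 333 CPM (-0.13). Of 18 BMP pathway genes, 6 were higher and 2 lower (median -0.18). *Bmp2*, a ligand that the study examined as an inducer of XEN genes, was higher by 3.16, from a median of 1.47 to 34.3 CPM. *Bmp7* (2.78) and the antagonist *Grem1* (1.97) were higher, the receptor *Bmpr1a* (-1.12) and the inhibitor *Id4* (-1.05) lower, and the target genes *Id1* (0.27) and *Id3* (-0.89) within 1.

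Of 22 measured Wnt targets, 3 were higher (13.6%) and 8 lower (36.4%) by over 1, beside 14.2% and 14.6% of all genes. Their median was -0.35, and CHIR99021 was present on both days. When the d8 cells were those with running numbers above 48, the counts were 4 higher and 5 lower. The homeobox gene *Msx2* (-3.43) and the feedback inhibitors *Nkd2* (-2.47), *Dkk2* (-1.98), *Wif1* (-1.96) and *Znrf3* (-1.40) were lower, and *Myc* and *Notum* (1.56), a deacylase of Wnt ligands, were higher. *Axin2*, the commonly used target, was at -0.97. Among 21 ligands, receptors and antagonists, 7 were higher and 6 lower (median 0.05), with the receptors *Fzd7* and *Fzd2* at opposite ends (4.28 and -2.79). Of 21 retinoic acid genes, 4 were higher and 3 lower (median 0.05). *Rbp4*, a retinol carrier (4.28), *Cyp26a1*, which breaks down retinoic acid (3.06), and *Aldh1a3*, which makes it (2.20), were higher, and the receptor gene *Rarb* (-1.37) and the reductase gene *Dhrs3* (-1.44) were lower.

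Metabolic and stress genes differed by list, and their counts stand beside 14.2% higher and 14.6% lower by over 1 among all genes. Of 30 glycolysis and hypoxia genes, 13 were higher (3 of them under the minimum at d8) and 1, the carbonic anhydrase *Car12* (-2.17), was lower (median 0.74). The glucose transporter *Slc2a1* was higher by 4.76, the first enzyme of glycolysis *Hk2* by 3.04, and *Adm*, a hypoxia-induced peptide hormone, by 2.83, from a median of 241 to 2000 CPM. Of 30 NRF2 antioxidant and glutathione genes, 13 were higher (1 of them under the minimum at d8). The glutathione peroxidase gene *Gpx3* (-1.20) alone was lower by over 1 (median 0.79). The metallothionein *Mt2* was higher by 5.32, from a median of 35.0 to 1790 CPM, with 44 of 67 d12 cells above the highest d8 cell (1300 CPM). *Mt1* (4.04), the haem oxygenase *Hmox1* (5.13) and the sulfiredoxin *Srxn1* (3.65) followed. Of 31 translation and ribosome biogenesis factors, 13 were higher (2 of them under the minimum at d8) and 0 lower (median 0.99). Among the 13 were the nucleolar proteins *Nop58* (2.38) and *Nolc1* (2.03) and the polymerase subunit *Polr1b* (2.13), while the elongation factor *Eef2* (0.01) was level. None of the 60 nuclear genes of oxidative phosphorylation differed by over 1, and their median was -0.22, close to that of all genes. Their summed level had medians of 42000 and 34400 CPM. Sterol and fatty acid genes went the other way in 12 of 30, with 6 higher (median -0.49). *Scd2*, a fatty acid desaturase (-2.31), and the sterol enzymes *Mvd* (-2.30) and *Nsdhl* (-2.12) were lower, but the last enzyme of cholesterol synthesis *Dhcr7* was higher (2.18), so the pathway did not move as a whole.

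**Figure D3:**
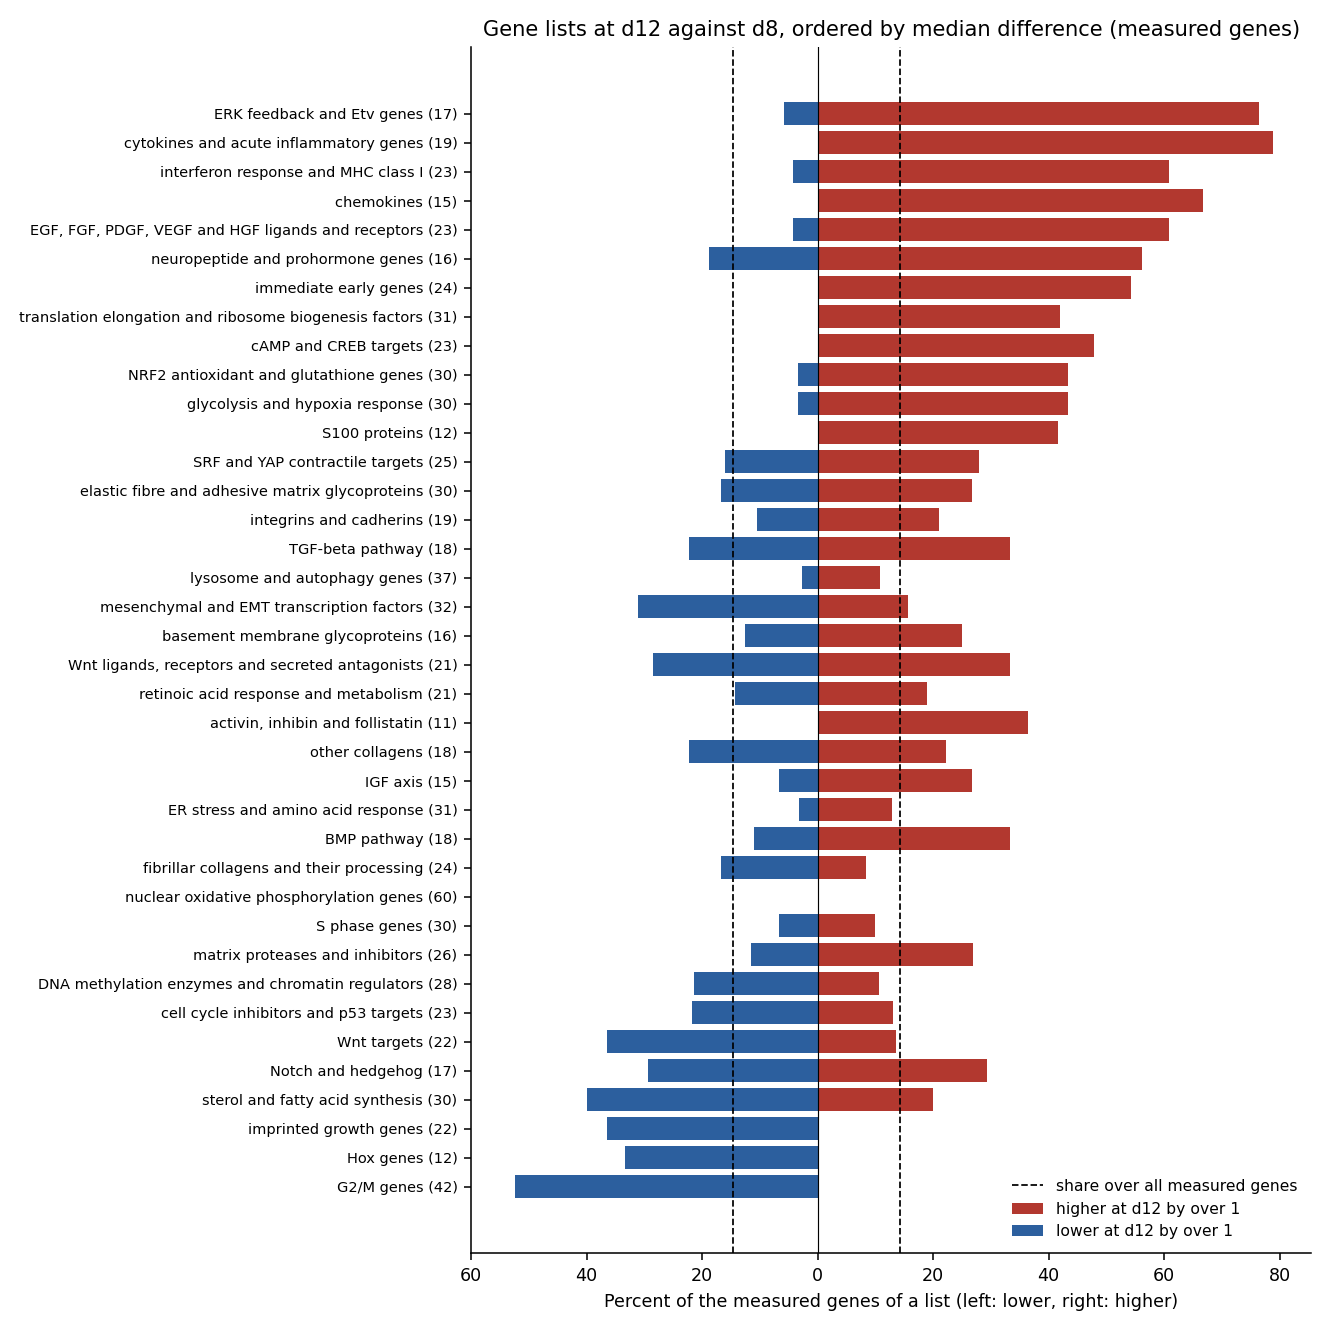
Percent of the measured genes of each list that were higher (red, to the right) or lower (blue, to the left) at d12 by over 1; the number of measured genes is in brackets, and the lists, those with at least 10 measured genes, are ordered by their median difference. The dashed lines give the share over all genes, 14.2% higher and 14.6% lower; ERK feedback and cytokine genes are at the top with 76.5% and 78.9% higher, and G2/M genes at the bottom with 52.4% lower.

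The largest decrease was that of *Sst*, the gene of the peptide hormone somatostatin (-6.87). All 62 d8 cells held *Sst* UMIs, with 40.6, 82.7 and 118000 CPM in the lowest, median and highest cell. In d12 cells it had 6 UMIs (exact Poisson 95% interval 2.20 to 13.1), and the highest cell was at 16.8 CPM, so the groups did not overlap. The highest d8 cell gave 90.5% of the summed CPM, and the second highest was at 1720 CPM. With 10% of the group mean subtracted, the difference was -1.68. The quartiles of the d8 cells were 63.0 and 138 CPM, a narrow low band like that of *S100g*, and what sets it was not tested.

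The other leading decreases were less concentrated in 1 cell, with the highest d8 cell giving 5.73 to 24.4% of the summed CPM, but they were not even. Between 31 (*Cavin2*) and 56 (*Tnrc6b* and *Tpgs1*) of the 62 d8 cells lay above 10% of the d8 mean. *Tnrc6b*, a partner of Argonaute in silencing by microRNAs, was at 0 to 823 CPM at d8 (median 101) and at 0 to 292 CPM at d12 (median 0.491), and 66 of 67 d12 cells lay below the d8 median. Its difference was -4.87. *Ptn*, the growth factor pleiotrophin, had a median of 59.0 CPM at d8 and 0.742 CPM at d12 (-4.31), and 54 of 67 d12 cells lay below the lowest d8 cell. *Ddit4l*, an inhibitor of mTOR signalling (-4.14), *Tmem100*, a membrane protein induced by BMP signalling (-4.02), and *Rev3l*, the catalytic subunit of a translesion DNA polymerase (-3.65), had d8 medians of 48.8, 101 and 23.8 CPM and d12 medians of 1.22, 1.30 and 0 CPM. *Thap3* (-3.46) and *Tsc22d4* (-3.46), genes of the THAP and TSC22 families, had d12 medians of 0 and 1.33 CPM. *Tpgs1*, a subunit of the enzyme that polyglutamylates tubulin (-3.41), and *Myh10*, a nonmuscle myosin (-3.39), had UMIs in 54 and 50 of the 67 d12 cells, at medians of 4.72 and 2.95 CPM against 105 and 85.8 CPM at d8. *Cavin2*, a coat protein of caveolae, differed by -3.35 (medians 12.3 and 0.871 CPM). *Tmem132cos* (-4.86, medians 54.4 and 0 CPM) and *Dnm3os* (-3.33, medians 93.1 and 2.66 CPM) are transcripts from the strand opposite a coding gene, and whether the counting used the strand is not stated, so their reads cannot be told from those of the partner gene.

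Mesenchymal transcription factors were split. *Snai2*, a repressor that drives epithelial to mesenchymal transition, went from 0 to 849 CPM (median 155) at d8 to 0 to 384 CPM (median 3.78) at d12, a difference of -3.42, and 62 of 67 d12 cells lay below the d8 median. Of 32 measured factors, 5 were higher (15.6%) and 10 lower (31.2%) by over 1, beside 14.2% and 14.6% of all genes. Their median was 0.11. Besides *Snai2* and *Msx2*, the odd-skipped genes *Osr1* (-3.20) and *Osr2* (-2.96) and the EMT factor *Zeb1* (-2.27) were lower. *Twist2* (1.95) and *Foxf1* (2.02) were higher. Of the fibroblast master genes that the study follows, *Osr1* was thus lower (medians 16.2 and 0 CPM), and *Twist2* (263 and 1350 CPM) and *Prrx1* (1.07, 175 and 370 CPM) were higher. *Twist1*, a relative of *Twist2*, was at medians of 157 and 173 CPM (0.00). Of 12 Hox genes, which mark position along the body, 0 were higher and 4 lower (median -0.79), led by *Hoxc5* (-2.39), and all 4 were under the minimum at d12. The count lower was 7 against d8 cells numbered 1 to 48 (median -1.17) and 2, with 1 higher, against those above 48 (median -0.29).

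Matrix genes were mixed. Of 7 measured small leucine-rich proteoglycans, 5 were lower, with a median of -1.12 (3 with TMM scaling or with d12 cells numbered above 48), and the biglycan gene *Bgn* (1.43) was higher. *Kera*, the corneal member of the family (-2.90), *Lum* (-1.65) and *Dcn* (-1.01), which regulate collagen fibrils, were among the 5. Their summed level had medians of 5130 and 2430 CPM. Of 24 fibrillar collagen genes and their enzymes, 4 were lower (16.7%, beside 14.6% of all genes) and 2 higher by over 1 (median -0.19). *Col11a1* (-2.15), *Col1a2* (-1.33) and *Col3a1* (-1.11), chains of fibrillar collagens, were lower. *Col1a2* had 133, 2040 and 7070 CPM in the lowest, median and highest d8 cell and 63.4, 1000 and 9960 CPM at d12, so that the cells overlapped widely. Among 30 elastic and adhesive glycoproteins, 8 were higher (26.7%) and 5 lower (16.7%), with a median of 0.40. The fibrillins *Fbn1* (-2.25) and *Fbn2* (-2.56) were lower, and the wound matrix genes *Tnc* (2.11) and *Thbs1* (1.81) higher. Of 26 proteases and inhibitors, 7 were higher (26.9%) and 3 lower (11.5%), with a median of -0.30. The urokinase gene *Plau* (5.17), its receptor *Plaur*, the inhibitor *Timp3* (3.49) and the protease *Mmp10* (2.97) were higher, and *Mmp11* (-2.43) lower. Smooth muscle markers were lower in 5 of 11 (median -0.76), or in 3 against d8 cells numbered above 48, with *Lmod1* (-3.12) and *Acta2* (-2.67), both of the contractile apparatus, at medians of 145 and 11.5 CPM for *Acta2*. In contrast, the focal adhesion genes *Zyx* (3.28) and *Vcl* (2.30) were higher, and the list of SRF and YAP targets was split at 7 higher and 4 lower of 25 (median 0.43). The pan-fibroblast markers *Thy1* (-0.72) and *Vim* (1.15) and the receptor *Pdgfra* (1.25) stood on either side of 0.

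Mitotic genes were lower. Of 42 measured G2/M genes, 22 were lower by over 1 and 0 were higher, and the median was -1.05. Of the 42, 13 reached the minimum at d8 only, among them 5 of the 22, and 0 reached it at d12 only. The count and median are thus partly set by that choice. The centromere histone *Cenpa* (-1.77), the mitotic kinase *Plk1* (-1.59) and the cyclin *Ccnb1* (-1.53) were lowest, and *Lbr*, a nuclear envelope protein (0.44), and *Cks2* (0.02) were above 0. The summed level of the list had medians of 824 and 502 CPM, but highest cells of 21500 and 9390 CPM. The 3 mitotic genes *Top2a*, *Mki67* and *Ccnb1* had UMIs together in 36 of 62 d8 cells (58.1%, exact Clopper-Pearson 95% interval 44.8 to 70.5) and in 17 of 67 d12 cells (25.4%, 15.5 to 37.5). After thinning, these shares were 8.47% and 6.06%. The count of lower genes in the list was 11 after thinning, 14 with d12 cells numbered 1 to 48, 9 with 10% of the mean subtracted and 5, with 1 higher, when the d8 cells were those with running numbers above 48. Of 30 S phase genes, 3 were higher (10.0%) and 2 lower (6.67%), both under the 14.2% and 14.6% of all genes (median -0.28). The repressor *E2f8* (3.42) and the cyclin *Ccne1* (-2.22) were at the ends. Imprinted growth genes were lower in 8 of 22 and higher in 0 (median -0.52), or lower in 5 and higher in 1 with TMM scaling or d12 cells numbered above 48, led by *Nnat*, a membrane proteolipid (-3.22), and *Peg3*, a zinc-finger protein (-2.43), while *Igf2* (-0.06), the imprinted growth factor, was level. Among chromatin genes, *Dnmt3a*, a DNA methyltransferase, was lower by 1.98 and the nucleosome-binding gene *Hmgn2* by 2.16, and *Dot1l*, the target of EPZ004777, was higher (2.02, 8.72 and 28.3 CPM).

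XEN genes were higher in few cells. *Sox17*, the endoderm transcription factor that the study places at the start of the XEN programme, had UMIs in 37 of 62 d8 cells and 63 of 67 d12 cells, at medians of 1.13 and 5.65 CPM and highest cells of 561 and 1580 CPM. Its difference was 1.76, and 0.44 with 10% of the mean subtracted. After thinning, 10.2% of d8 cells and 31.8% of d12 cells held a *Sox17* UMI. *Gata6* was higher by 1.74 and *Gata4* by 0.96, at d12 medians of 2.29 and 0.868 CPM. *Foxa2* had 0 UMIs at d8 and was found in 21 of 67 d12 cells, and *Sox7* in 8 d8 cells and 28 d12 cells (0.62). *Sall4* went the other way, from 17 to 9 cells (-0.42). *Foxa2*, *Sox7* and *Sall4* were under the minimum. XEN markers summed to a median of 49.5 CPM at d8 (0 to 733) and of 58.5 CPM at d12 (11.1 to 6420). The markers *Hnf4a* and *Ttr* were at 0 on both days. Without the 2 d12 cells that held more XEN than fibroblast UMIs, 1375 genes were higher by over 1 and 1445 lower.

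Of the 14 epithelial markers, 10 reached the minimum, 8 of them at d12 only, so their count is not read as a result. *Krt8* and *Krt18*, which reached it on both days, were higher by 4.47 and 1.84. *Krt19*, a keratin of simple epithelia, had lowest, median and highest d12 cells of 24.0, 51.5 and 10200 CPM, against 0, 0 and 193 CPM at d8. *Krt8*, a keratin of the same epithelia, had 21.3, 38.6 and 4270 CPM at d12. The summed epithelial level was thus at least 77.7 CPM in every d12 cell, with a median of 141 CPM (12.6 CPM at d8) and a highest value of 14400 CPM, and UMIs were found for 13 of the 14 markers, all but *Grhl2*. At d20 the median was 2410 CPM. For the 9 genes with at least 200 CPM at d20 and at most 2 CPM at d8, the median d12 cell was at 0.460% of the d20 mean (5th to 95th percentile 0 to 3.26%), and *S100g* was at 0.607% of 18300 CPM. Of the 475 genes that were higher by over 2, 9 had a d12 median at or under 3.26% of their d20 mean. Whether these low levels lay in the cells themselves was not tested. Of the neural markers, 5 of 8 were higher and 2 lower (median 1.19), with the neurofilament genes *Nefm* (4.78) and *Nefl* (3.68) highest and the vesicle gene *Syt1* (-2.23) lowest, and their sum had medians of 722 and 977 CPM. Neuropeptide and prohormone genes were higher in 9 of 16 and lower in 3 (median 1.21), with 5 of the 9 under the minimum at d8 and 2 of the 3 at d12, or 5 and 5 with 10% of the mean subtracted. *Vgf* (4.56) and *Tac1* (3.91), a tachykinin precursor, were higher, and *Edn1*, the endothelin gene, was lower (-2.88, 6 UMIs at d12). Endothelial markers summed to medians of 5.82 and 34.7 CPM, with *Pecam1* and *Emcn* at 0. Of the 2 endothelial markers that reached the minimum, 1 was higher by over 1 (median 1.18), and it was under the minimum at d8.

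Cells of a day carry running numbers, and the ranges 1 to 48 and above 48 were compared, since a plate or batch might follow them, though no label says so. In d8, 42 cells were in the lower range and 20 in the upper, and in d12, 45 and 22. The ranges also differed in depth, with median UMIs of 691657 in the lower and 359096 in the upper range of d8. In d12 these medians were 827681 and 613868.5. The median d8 cell had 7973 detected genes in the lower and 7012 in the upper range. How far depth bears on the differences between ranges was not tested. Across the 4 pairings of ranges, 473 of the 475 genes higher by over 2 were higher by over 1 in all 4, and 319 by over 2. Of the 190 lower genes, 176 were lower by over 1 in all 4 and 77 by over 2. Both sets were picked by the pooled difference over these same cells. Their agreement at the smaller difference was thus largely set by the choice and is no separate evidence. *Ereg* differed by 7.85 to 9.20 and *Snai2* by -4.38 to -1.41. Within d8 the ranges themselves differed by over 1 in 1516 of 9333 genes (16.2%), and within d12 in 463 of 9204 (5.03%). Among the 30 leading genes the largest such gap was 1.98 in d8 and 1.34 in d12. With the upper range as the only d8 cells, 2112 genes were higher at d12 and 1046 lower, so the balance of directions depends on the d8 range used.

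**Figure D4:**
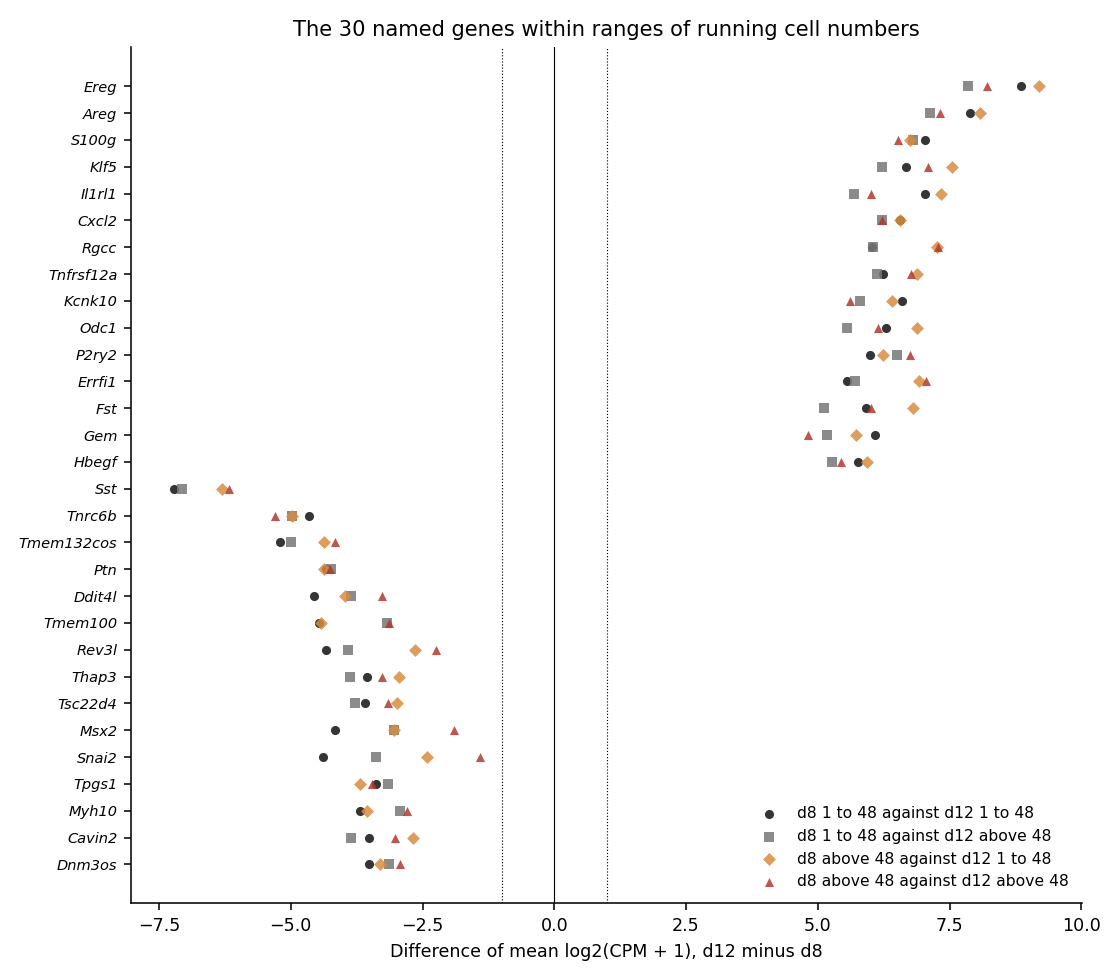
Difference of mean log2(CPM + 1), d12 minus d8 (x axis), for the 15 genes with the largest increases and the 15 with the largest decreases, in the 4 pairings of number ranges (1 to 48 and above 48 on each day). Dotted lines mark a difference of 1; all 30 genes keep their side of it in the 4 pairings, and *Snai2* comes nearest, at -1.41. The genes were picked by the pooled difference over the same cells, so this was largely set by the choice.

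Over the course, several of the leading increases had been higher before d8. *Ereg* had a mean log2(CPM + 1) of 1.83 at d0, 4.29 at d1 and 0.45 at d8, then 9.08 at d12 and 0.11 at d20. *Areg* peaked at 4.78 on d1, was at 0.33 on d8 and 8.02 on d12, and was at 0.37 on d20. In d12c cells, picked from colonies on the same day, they were at 3.28 and 3.37. *Hbegf* was at 4.97 on d0, 0.62 on d8, 6.28 on d12 and 2.18 on d20. *Klf5* stayed high, at 7.96 on d12, 6.72 in d12c cells and 5.61 on d20. Of the 475 genes higher by over 2, 400 were above every earlier group at d12, 160 had been lower at d8 than at d0 by over 1, and 341 were lower at d20 than at d12 by over 2. Of the 190 lower genes, 135 were below every earlier group, 112 had been higher at d8 than at d0 by over 1 and 32 were higher at d20 than at d12 by over 2. *Snai2* was at 3.36 on d0, 6.62 in d6p cells, 6.50 on d8, 3.08 on d12 and 0.00 on d20. *S100g* was at 7.34 on d12, 11.21 in d12c cells and 13.67 on d20, and *Sst* was at 6.10 in d8c cells as well but at most at 2.60 in any group before d8. These counts share the d8 and d12 cells with the comparison, so they place the genes in the course and are no separate evidence.

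**Figure D5:**
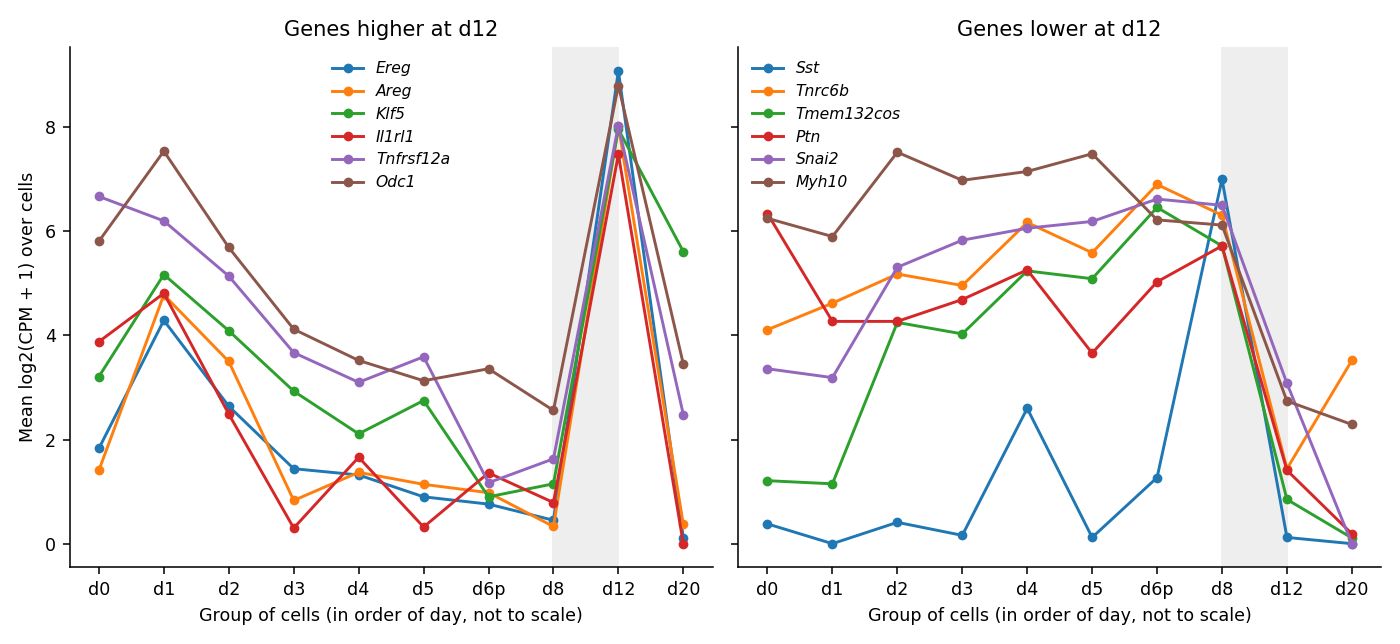
Mean log2(CPM + 1) over the cells of each group (y axis) in order of day (x axis, not to scale), for 6 genes higher and 6 lower at d12; the step from d8 to d12 is shaded. The 6 higher genes are low at d8 and at their highest at d12, where *Ereg* is at 9.08, and *Snai2* falls from 6.50 to 3.08 and then to 0.00 at d20.

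The leading increases did not all vary together among the 67 d12 cells. Over the 105 pairs of the 15 genes, the Pearson correlation of log2(CPM + 1) had a median of 0.21 and ran from -0.58 (*Errfi1* and *S100g*) to 0.71 (*Ereg* and *Kcnk10*). *Ereg* correlated at 0.59 with *Errfi1* and with *Il1rl1*. These are descriptions over cells whose batches are not known, and the median correlation of the 15 genes with log2 UMIs of the cell was 0.00.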

How the data were processed

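Single-cell polyadenylated RNA was sequenced as paired ends on a HiSeq X-Ten. As deposited, the values are counts of unique molecular identifiers (UMIs) per gene and cell. The authors' reads were de-duplicated by UMI after alignment to the transcriptome of mm9, and the aligner is not given in the sources used here. The table held 23197 genes, 92 spike-in RNAs and 4 entries of repeated date-like names, which were left out (26 names were dates). Large counts were rounded before deposit: the 5 of 100000 or more reach 129000. No 2 cells were identical. No doublet caller was run, as cells were picked by hand.

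Cells needed 4000 detected genes to be kept, CPM were taken without spike-in RNA, and the difference of mean log2(CPM + 1) was taken over the 9696 genes with a mean that reached 1 on either day. Cells are not replicates, so no test was made. UMI sums were given exact Poisson and shares exact Clopper-Pearson 95% intervals, for counting error only. Shares were repeated after thinning to 50000 UMIs (59 d8 and 66 d12 cells). On data simulated for this comparison, differences past 1 were found for 60 of 60 genes changed 16-fold, 54 of 60 changed 4-fold and 27 of 80 changed 2-fold, and for 0.939% of unchanged genes. The changed genes were drawn only from those with a clear level at d8. These shares do not cover genes near 0 at d8 such as *Ereg* (1.62 CPM). The simulated cells were independent and held no batch, whereas the number ranges of the real d8 cells differed by over 1 in 16.2% of genes. TMM factors came from edgeR 4.0.16 and size factors from DESeq2 1.42.0 (R 4.3.3), on sums over cells, and the rest was run in Python (version 3.11.15; scipy 1.17.1, pandas 2.3.3, numpy 2.4.6). Gene positions are from GENCODE M1 on mm9.

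The genes named are the 15 with the largest increases and the 15 with the largest decreases, master genes of fibroblasts and XEN cells, up to 6 members at the ends of each list, and members that went against a list. A few are named besides because of their role, or after their values were seen: the neighbours of Ereg on chromosome 5, Gkn1, Serpinb2 and the genes whose promoters are printed. Members and lists were chosen with earlier results of these data known. Some results are not reported here.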

Additional observations from a re-analysis of the deposited data

How the results depend on the processing

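With 1 sample a group, nothing here measures the spread between cultures or animals, and genes near 0 are limited by the depth of single cells. No paired analysis was possible because cell names carry no batch. Of 271 values (gene differences and list medians) under 21 alternatives, 5331 of 5691 kept their side of a difference of 1, 354 crossed it and 6 changed sign after passing it. The alternatives with no minimum level and with a mean log2 of at least 3 change only which genes are compared. All 271 values therefore stayed the same in each of them by design, which raises the count that kept their side. The 30 leading genes kept their call in every alternative, except 1 gene when d6p cells replaced d8 cells. They were picked for the size of their difference, so this was largely set by the choice. The counts higher and lower by over 1 were 1380 and 1416. They became 530 and 312 with a pseudocount of 10 and 2088 and 2476 with a pseudocount of 0.1. With d8 cells numbered above 48, 2112 genes were higher, and with a mean log2 of at least 3, 918 of the fewer genes compared were lower. At a difference of over 2, the 475 and 190 genes became 108 and 19 with a pseudocount of 10 and 979 and 817 with 0.1. The lower count was 616 with medians over cells and 123 with 10% of the group mean subtracted. The share of upward calls was 49.4%, against 62.9% with the pseudocount of 10 and 66.9% with d8 cells above 48. The median change in the share of cells with a UMI was 64.5 points for the 15 leading increases and -37.2 for the decreases, and 80.6 and -55.6 after thinning. With d6p in place of d8, a choice made after seeing the data, *Col11a1* (0.70), *Dcn* (0.65), *Gpx3* (0.29), *Tnnt3* (0.12) and *Spp1* (-0.33) changed sign, as did *Spp1* (-0.15) with 10% subtracted. The cause was not tested.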

Other observations

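Several gene groups outside the leading differences were measured as well. Their counts stand beside 14.2% higher and 14.6% lower by over 1 among all genes. Of 12 S100 genes, 5 were higher by over 1 and 0 lower (median 0.58), with *S100a8* (2.80), a calcium-binding alarmin, next after *S100g*. Of 15 genes of the IGF axis, 4 were higher and 1 lower (median -0.06). *Igfbp5*, a secreted binding protein of insulin-like growth factors, was lower by 3.17, from a mean of 803 to 129 CPM, whereas *Igfbp4* was higher (1.11, 262 and 594 CPM). Of 17 Notch and hedgehog genes, 5 were higher and 5 lower (median -0.42), with the Notch target *Hes1* at 3.46 and the hedgehog coreceptor *Cdon* at -2.66. Integrins and cadherins were higher in 4 of 19, all 4 under the minimum at d8, and lower in 2 (median 0.30), and *Itga6* and *Itga3*, both laminin-binding integrins, were higher by 2.26 and 1.78.

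Of 18 other collagens, 4 were higher and 4 lower (median -0.05). The basement membrane chains *Col4a2* (2.43) and *Col4a1* (1.08) were higher, and *Col14a1* (-1.87) and *Col6a3* (-1.73), chains of interstitial collagens, were lower. Of 16 basement membrane glycoproteins, 4 were higher and 2 lower (median 0.07), with *Nid1* (1.61) highest and *Frem1* (-1.57) lowest. Of 23 cell cycle inhibitors and p53 targets, 3 were higher and 5 lower (median -0.34). *Gadd45a*, a stress sensor, was higher by 2.54, *Cdkn1a*, which stops the cell cycle, was at 1760 and 2610 CPM (1.00), and the death receptor *Fas* was lower by 1.82. ER stress and amino acid response genes were higher in 4 of 31 (12.9%) and lower in 1 (3.23%), both under the shares of all genes (median -0.09). The cystine transporter *Slc7a11* was highest (2.35), and the chaperone *Hspa5* was at 0.34. Lysosome and autophagy genes were also under those shares, with 4 of 37 higher (10.8%) and 1 lower (2.70%) and a median of 0.22. The protease *Ctsl* was highest (1.79, 749 and 2660 CPM).

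Among markers of other cell types, skeletal muscle markers were higher in 1 of 6 and lower in 1 (median 0.42), with the troponin *Tnnt3* at -2.23. Cartilage, bone and tendon markers were higher in 3 of 7 and lower in 1 (median 0.83). *Spp1*, which encodes osteopontin, was higher by 3.04, but at -0.15 with 10% of the group mean subtracted, and *Tnmd*, a tendon membrane protein, was lower by 3.04, from 3412 UMIs (exact Poisson 95% interval 3300 to 3530) to 25 (16.2 to 36.9). Of 3 adipocyte markers that reached the minimum, 2 did so at d12 only, and *Adipoq*, *Lep* and *Ucp1*, which define fat cells, were at 0.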
